A study of Mus musculus with 18 samples.

Results

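The comparison described here set IL-2 directly against IL-7 in primed CD8 T cells. Of the 18 arrays of the series, the 6 titled CD8 IL-2 and CD8 IL-7, with 3 biological replicates of each, were chosen by their titles, and 18211 genes were compared between them. The series asked how the transcriptional programs of activated CD8 T cells differ after exposure to single cytokines of the common gamma chain family. All cells came from male OT-I Thy1.1 mice, whose CD8 T cells carry 1 transgenic T cell receptor for an ovalbumin peptide, so the cells are of a single specificity and are a model of CD8 T cells primed by 1 antigen. Purified OT-I CD8 T cells were primed for 48 h with irradiated C57BL/6 splenocytes pulsed with that peptide, live cells were enriched over Ficoll, and the cells were then cultured for 24 h with 100 ng/ml of IL-2 or of IL-7, of another cytokine of the family (IL-4, IL-15 or IL-21), or in media alone (media control). RNA was measured on Mouse 430 2.0 GeneChips, with the RNA of replicates 1 and 2 of every group isolated with RNeasy columns and that of replicate 3 with TRIzol and Direct-zol. All values below are log2 array signals after quantile normalization of the 18 arrays, listed in the order of replicates 1, 2 and 3, and every difference is IL-2 minus IL-7 on the log2 scale unless stated.

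IL-2 and IL-7 are cytokines that keep T cells alive and drive their growth. IL-2 binds a receptor of the alpha chain CD25 (Il2ra), the beta chain CD122 (Il2rb) and the common gamma chain (Il2rg), whereas IL-7 binds its own alpha chain CD127 (Il7r) together with the common gamma chain. Both receptors signal through JAK1 and JAK3 to STAT5 and to the PI3K pathway. IL-2 is known in CD8 T cells for driving proliferation and effector differentiation, and IL-7 for the survival of naive and memory cells.

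The labelled cell type was checked against marker genes. The 9 CD8 T cell markers measured were Cd8a, Cd8b1, Cd3d, Cd3e, Cd3g, Cd247, Thy1, Cd2 and Lat. All 9 lay at or over the background level of 7.94, a value that 95% of 38 genes characteristic of other tissues did not exceed in their means. The mean over these 9 markers ranged from 11.61 to 11.96 with IL-2 and from 11.98 to 12.24 with IL-7, and 5 of them were lower with IL-2 (Cd3d, Cd3e, Cd3g, Cd8a and Cd8b1, with differences of -0.46 to -0.70). None of the 11 B cell, 13 myeloid or 6 red cell markers reached the background level in its mean with IL-2 or with IL-7, or passed between them. The mean of the B cell markers was 4.95 to 5.19 with IL-2 and 5.07 to 5.10 with IL-7 (1 B cell marker was lower without the 3 arrays of the lower scale). Markers of other cells were in part above background, at 3 of 12 for dendritic cells, 3 of 7 for NK cells and 2 of 6 for CD4 T cells. The mean over these lists was 6.55 to 6.78, 6.85 to 7.08 and 7.14 to 7.32 with IL-2, and 6.51 to 6.74, 6.96 to 7.33 and 6.84 to 6.88 with IL-7. Among them Batf3 and Tnfrsf4 were higher and Cd160 and Nkg7 lower with IL-2, and all 4 are known in activated CD8 T cells as well. The class II gene H2-Ab1, of antigen-presenting cells, was at a mean of 9.28 with IL-2 and 9.40 with IL-7. Other listed genes of class II presentation lay lower, H2-Aa at 7.33 and 7.74, H2-Eb1 at 7.11 and 7.29 and Cd74 at 7.51 and 8.03. Cd4 (6.53 and 6.08) and the NK receptor gene Ncr1 (4.07 and 4.05) were under background. The part of these other cell types in the results was not tested. IL-2 replicate 3, like replicate 3 of the media and IL-15 groups, was deposited on a lower scale (array median 4.47) than the other 5 arrays of this comparison (5.76 to 5.84), and its 3' minus 5' actin signal was 0.589 against 0.372 for IL-7 replicate 3 and 0.220 to 0.308 for the other 4. These 3 arrays were therefore rescaled with the others, and counts of a list without them are given beside at least those they move by more than 1.5 times. The arrays measure RNA of the whole culture, in which fewer cells of a type and less RNA per cell cannot be told apart.

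At 24 h, IL-2 and IL-7 left these cells with different levels of 2027 of the 18211 genes (11.1%, limma adjusted p under 0.05). Of these, 949 (5.21%) were higher and 1078 (5.92%) lower with IL-2. Among the largest rises were the cytokine genes Ifng, Lta and Lif, the enzymes Cth and Asns and the carrier Slc7a3 of amino acid supply, and the transcription factor Batf3. Among the largest falls were the interferon-inducible genes Ifi209 and Mndal, the chemokine Xcl1, the quiescence factor Klf2 and the death gene Bcl2l11 (BIM). Most differences were modest, with a median size of 0.53 among genes that were higher and 0.58 among those that were lower, and 91 and 161 genes, respectively, differed by at least 1 on the log2 scale. All 3 IL-2 arrays lay beyond all 3 IL-7 arrays for 617 of the 949 and 772 of the 1078, compared with 3366 of all 18211 genes (18.5%). The counts depended on single arrays. They became 563 higher without IL-2 replicate 1, 512 higher and 663 lower without IL-2 replicate 2, 603 higher without IL-7 replicate 1, and 446 higher and 623 lower without IL-7 replicate 3, whereas 1316 were higher and 1410 lower without the 3 arrays of the lower scale. On the deposited scale, with no further normalization, 14 were higher and 157 lower, and the median over all genes moved to -0.41. In the same fit 5568 genes (30.6%) differed between IL-2 and media, and 2978 genes (16.4%) between IL-7 and media. These comparisons use the same media arrays, so their values are only set side by side below. The mean over the myeloid markers was 5.44 to 6.64 in media, 5.04 to 5.22 with IL-2 and 5.04 to 5.54 with IL-7. For the dendritic cell markers it was 6.73 to 7.23 in media, against 6.55 to 6.78 and 6.51 to 6.74. The part of such cells in the comparisons with media was not tested.

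**Figure D1:**
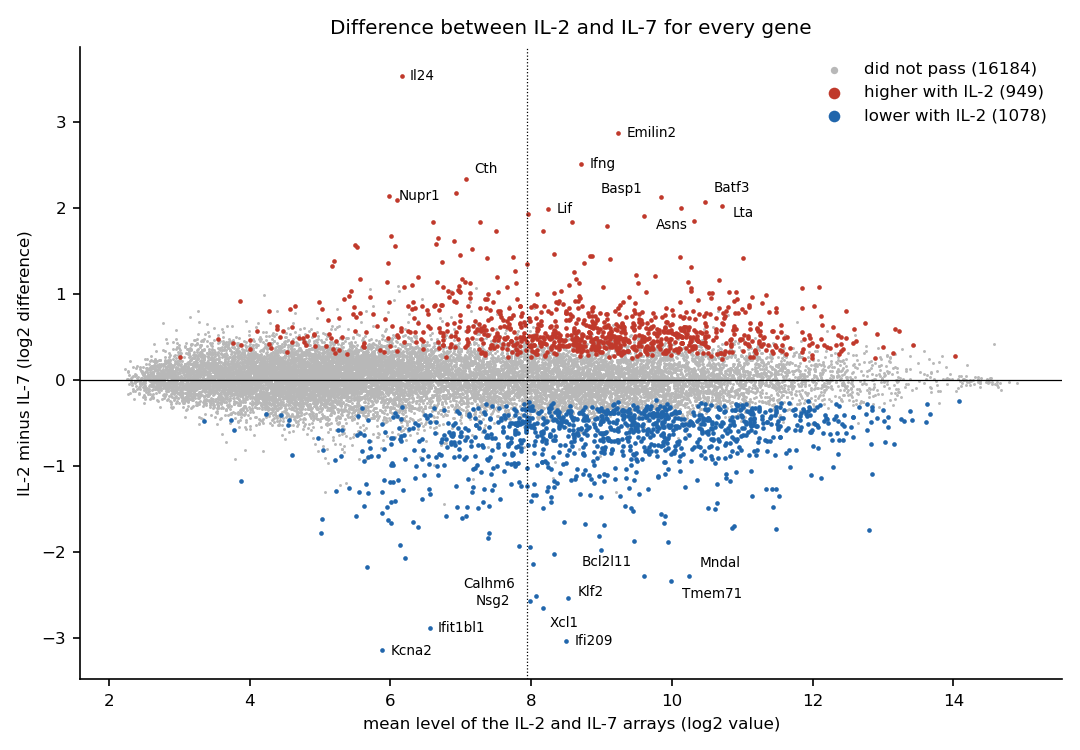
Each point is 1 of 18211 genes, with its mean log2 signal over the IL-2 and IL-7 arrays on the horizontal axis and its log2 difference between IL-2 and IL-7 on the vertical axis; colored points passed the limma test (949 higher and 1078 lower with IL-2), and the vertical line marks the background level of 7.94. The differences of the named genes range from 3.54 for Il24 at the top to -3.14 for Kcna2 at the bottom, and both of these lie to the left of the background level.

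The 15 largest rises that reached the background level with IL-2 and showed no overlap of the arrays included 3 secreted cytokines. Lta, which encodes lymphotoxin alpha, measured 11.66, 11.59 and 11.92 with IL-2 and 9.48, 9.34 and 10.29 with IL-7. The lowest IL-2 array therefore exceeded the highest IL-7 array, and the difference was 2.02 (SE 0.13, adjusted p = 3.28e-06). Lif, the leukemia inhibitory factor, measured 9.05, 9.19 and 9.48 with IL-2 and 7.37, 6.997 and 7.38 with IL-7, and the difference was 1.99 (SE 0.17, adjusted p = 1.61e-05). Ifng, which encodes interferon gamma, measured 10.46, 8.83 and 10.63 with IL-2 and 8.01, 6.86 and 7.51 with IL-7, with IL-2 replicate 2 well below the other IL-2 arrays and IL-7 replicate 2 the lowest of its group, and the difference was 2.51 (SE 0.35, adjusted p = 0.000454). The mean of both Lif and Ifng with IL-7 was under the background level, so the sizes of these differences are approximate. The transcription factor Batf3 measured 11.57, 11.25 and 11.68 with IL-2 and 9.31, 9.18 and 9.81 with IL-7, a difference of 2.07 (SE 0.23, adjusted p = 0.000106), and the groups were more than 1 log2 unit apart. Against media, Batf3 differed by 3.78 with IL-2 and by 1.71 with IL-7, and Lta by 3.69 and 1.67, so both cytokines moved these genes in the same direction and IL-2 moved them further. Ifng differed from media by 3.10 with IL-2 (adjusted p = 8.82e-06) and by 0.58 with IL-7 (adjusted p = 0.271).

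The largest rise of all 15 was Emilin2, an extracellular matrix glycoprotein gene, which measured 10.43, 11.56 and 10.03 with IL-2 and 7.996, 8.70 and 6.69 with IL-7 (difference 2.88, SE 0.41, adjusted p = 0.000574). The spread within each group was wide, yet the lowest IL-2 array was above the highest IL-7 array, and the 3 pairs differed by 2.44, 2.86 and 3.34. Cdkn1a, the cyclin-dependent kinase inhibitor p21, measured 11.04, 11.63 and 11.06 with IL-2 and 9.51, 9.27 and 9.40 with IL-7 (difference 1.85, SE 0.23, adjusted p = 0.000207). Nupr1, a stress-induced nuclear protein, was higher by 2.17 (adjusted p = 0.000511) and Atf3, a transcription factor of the stress response, by 1.84 (adjusted p = 0.00201). Other rises in this group were Basp1 at 2.13, Dmwd at 1.94, Hemk1 at 1.91 and Sypl at 1.79. The IL-7 means of Emilin2 (7.80), Nupr1 (5.85), Atf3 (7.65) and Dmwd (6.99) were under the background level, so these sizes are approximate too. The other Dmwd probe sets, with means under background, differed by -0.06 and 0.03 and did not pass in a limma fit over all named probe sets. The Hemk1 probe set used can cross-hybridize, and another Hemk1 probe set differed by 1.85 and passed in that fit. Hemk1 lies on mouse chromosome 9 at a distance of 24297 bases from Cish, a STAT5 target described below, and the annotated genes do not overlap.

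**Figure D2:**
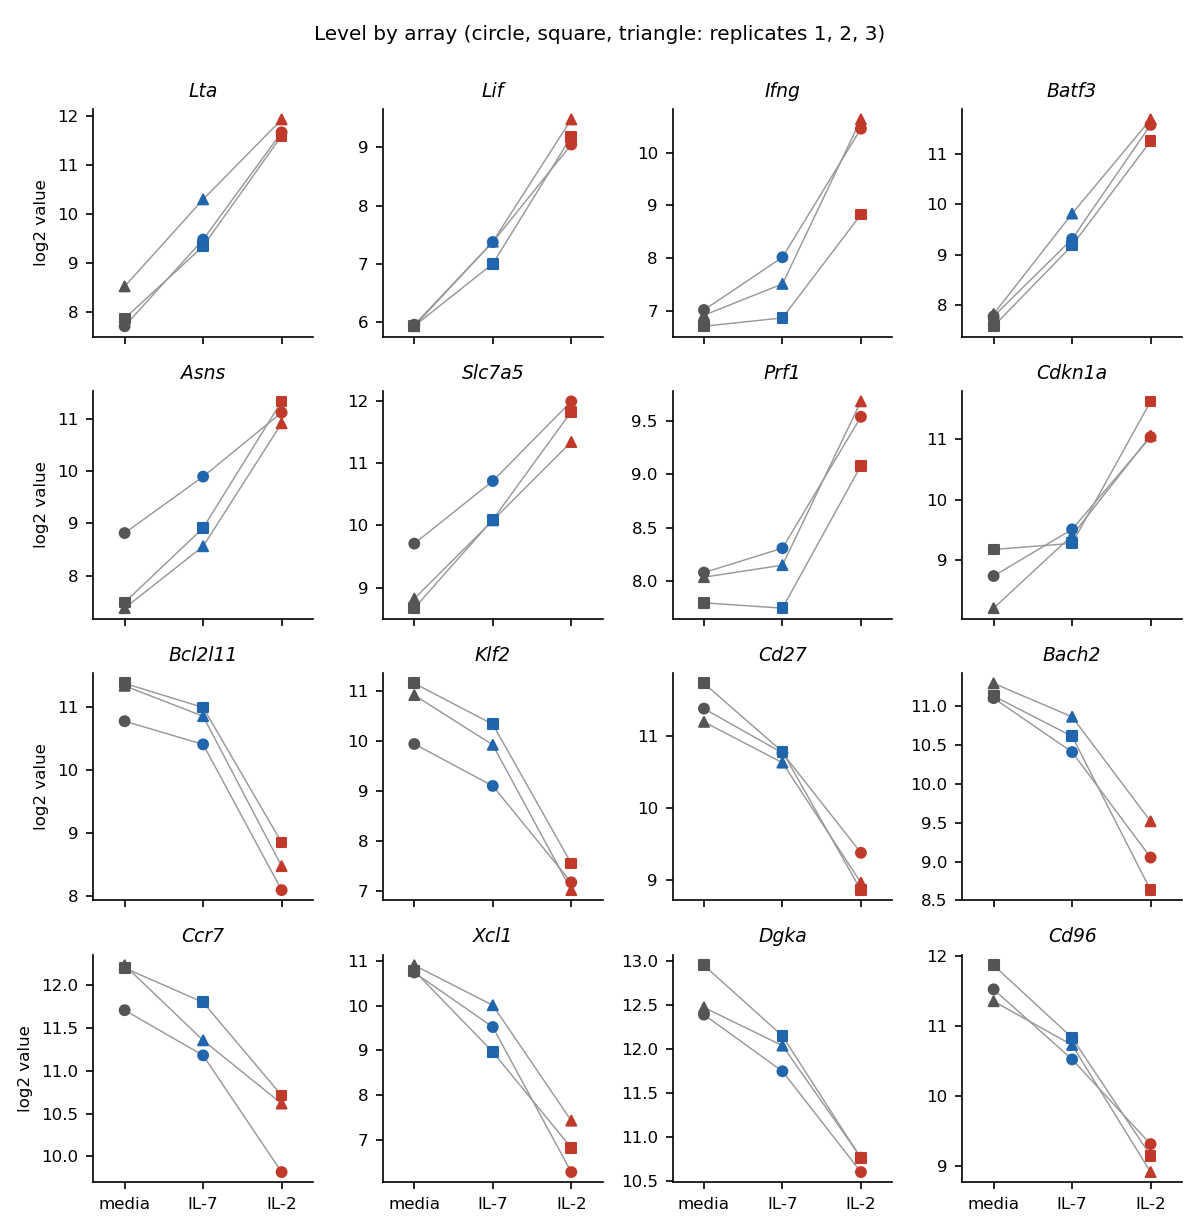
Log2 array signal (vertical axis) of 16 named genes in media, IL-7 and IL-2; circles, squares and triangles are replicates 1, 2 and 3 and lines join the arrays of 1 replicate number. Lta, Lif, Ifng, Batf3, Asns, Slc7a5, Prf1 and Cdkn1a lie higher with IL-2 than with IL-7 in every replicate pair, and Bcl2l11, Klf2, Cd27, Bach2, Ccr7, Xcl1, Dgka and Cd96 lie lower.

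The 15 largest falls included the death gene Bcl2l11, the quiescence genes Klf2 and Slfn1, and interferon-inducible genes. Bcl2l11, which encodes BIM, a BH3-only protein that promotes apoptosis, measured 8.09, 8.84 and 8.47 with IL-2 and 10.40, 10.99 and 10.85 with IL-7. The groups were separated by more than 1 log2 unit, and the difference was -2.28 (SE 0.16, adjusted p = 3.68e-06). With IL-2 it was -2.69 relative to media, and with IL-7 -0.41 (adjusted p = 0.0974). Klf2, a transcription factor of quiescence and T cell trafficking, measured 7.18, 7.56 and 7.03 with IL-2 and 9.10, 10.33 and 9.92 with IL-7 (difference -2.53, SE 0.27, adjusted p = 6.46e-05). All 3 IL-2 values of Klf2 were under the background level while all 3 IL-7 values were above it, so the size of this difference is approximate. The same holds for Xcl1, which encodes the chemokine lymphotactin and measured 6.29, 6.83 and 7.43 with IL-2 and 9.52, 8.97 and 10.01 with IL-7 (difference -2.65, SE 0.28, adjusted p = 6.66e-05), and for Ifi209, an interferon-inducible gene, which measured 6.81, 6.95 and 7.18 with IL-2 and 9.53, 10.26 and 10.24 with IL-7 (difference -3.03, SE 0.26, adjusted p = 1.61e-05). Mxd4, a member of the MXD repressors that oppose MYC, was lower by 1.93 and Slfn1, a Schlafen gene of T cell quiescence, by 2.13. The other falls in this group were Ifit1bl1 (-2.88), Nsg2 (-2.56), Calhm6 (-2.51), Tmem71 (-2.33), Mndal (-2.27), Slamf6 (-2.02), Sh3bp5 (-1.97), Ms4a4c (-1.94) and Ipcef1 (-1.88). The IL-2 means of Mxd4, Slfn1, Ifit1bl1, Nsg2, Calhm6, Slamf6 and Ms4a4c were also under the background level, so their sizes are approximate too. Mndal and Ms4a4c were measured by probe sets that can cross-hybridize to related genes, and are therefore less certain. All 30 of these largest rises and falls passed the test when any 1 of the 6 arrays was left out, and 27 passed without the replicate term. Whichever replicate number was left out of every group, media and the other cytokines included, 25 passed.

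The largest differences of all genes lay at low signals and fell outside this group. Il24, a cytokine gene induced by STAT5, measured 8.62, 8.52 and 6.65 with IL-2 and 4.74, 4.50 and 3.92 with IL-7 (difference 3.54, SE 0.47, adjusted p = 0.000368), with an IL-2 mean just under background. Kcna2, a potassium channel gene named here after its values were seen, differed by -3.14, and its group mean with IL-7 was 7.45, also under background.

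In 38 gene lists for T cell functions, 631 genes were measured, of which 107 were higher and 106 lower with IL-2 (125 and 120 without the 3 arrays of the lower scale). The lists were drawn up with earlier results of these data known, so that this share, 33.8%, is a description and cannot be read against the 11.1% of all genes as a finding about the lists. The lists with the most genes higher with IL-2 were ribosome biogenesis (19 of 25), amino acid synthesis and ATF4 targets (18 of 21) and aminoacyl-tRNA synthetases (13 of 18), none of which held a gene that was lower. The lists with the most genes lower were T cell receptor signalling (14 of 24) and quiescence and FOXO targets (11 of 23), followed by 3 lists with 8 each, lymph node homing (of 11), memory and naive transcription factors (of 17) and interferon response (of 27). The median difference was between -1.06 and 0.92 over the 38 lists and 0.02 over all genes.

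**Figure D3:**
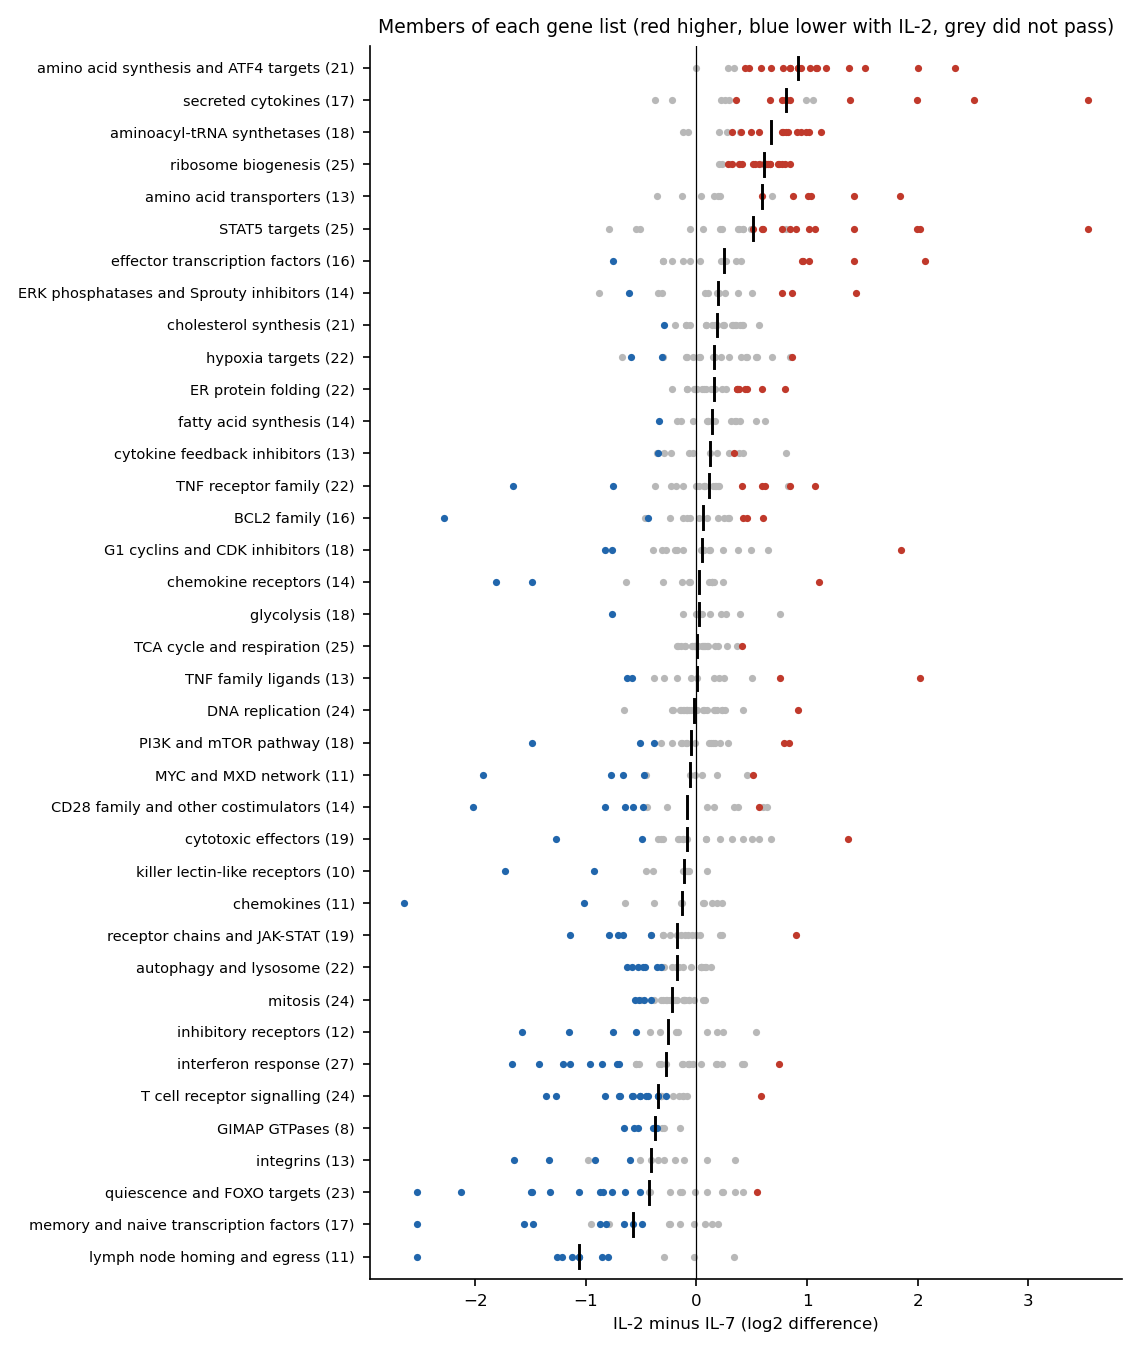
Log2 difference between IL-2 and IL-7 (horizontal axis) of each measured gene in 38 gene lists (rows, ordered by their median, drawn as a black tick); colored points passed the limma test. Amino acid synthesis and ATF4 targets lie at the top with a median of 0.92 and lymph node homing and egress at the bottom with a median of -1.06, while glycolysis, DNA replication and respiration are centered near 0.

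Among the receptor chains and JAK-STAT genes, CD25 was the only 1 of 19 genes higher with IL-2, and 5 were lower. Il2ra measured 11.89, 11.36 and 11.94 with IL-2 and 10.76, 10.73 and 11.001 with IL-7, with every IL-2 array above every IL-7 array, and was higher by 0.90 (SE 0.19, adjusted p = 0.00686). Relative to media Il2ra was at 3.14 with IL-2 and 2.24 with IL-7, so its level was raised with both. The IL-7 receptor gene Il7r was at -0.61 with IL-2 (adjusted p = 0.0265) and -0.84 with IL-7 (adjusted p = 0.0102) relative to media, and the difference between the cytokines was 0.23 (95% interval -0.19 to 0.65, adjusted p = 0.487). Il2rb did not pass either, with a difference of -0.04 (95% interval -0.27 to 0.19). The common gamma chain gene Il2rg was lower with IL-2 by 0.79 (adjusted p = 0.000284), as were Jak1 by 0.67 (adjusted p = 0.00283) and Jak2 by 0.71 (adjusted p = 0.00228). Jak3, Stat5a and Stat5b did not pass (-0.31, -0.00 and -0.30). Tyk2, named after its values were seen, was also lower. Without the 3 arrays of the lower scale 1 gene was higher and 8 were lower.

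Known targets of STAT5 fell into those that were higher with IL-2 than with IL-7 and those for which no difference was detected. Of 25 targets measured, 12 were higher with IL-2, none was lower, and 13 did not pass, with a median difference of 0.51. The counts were 15 higher and 3 lower without the 3 arrays of the lower scale, 7 higher without IL-7 replicate 3, and 1 lower without IL-2 replicate 3. Relative to media 20 were higher with IL-2 and 19 with IL-7. In addition to Lta, Lif and Il24, the genes higher with IL-2 included Nfil3, a basic leucine zipper transcription factor (1.43, adjusted p = 0.00129), and Prdm1, which encodes BLIMP-1, the factor of terminal effector differentiation (1.02, adjusted p = 0.00969). Both means of Prdm1, 7.64 with IL-2 and 6.63 with IL-7, were under background, and Prdm1 did not pass without IL-7 replicate 3 (adjusted p = 0.0693). The feedback inhibitor Cish, one of the most responsive STAT5 targets in T cells, measured 11.85, 12.15 and 10.20 with IL-2 and 11.22, 11.10 and 10.72 with IL-7 against 8.28, 8.32 and 7.68 in media. IL-2 replicate 3, an array of the lower scale, was below all 3 IL-7 arrays, while IL-2 replicates 1 and 2 were above them. Cish was 3.30 above media with IL-2 and 2.92 with IL-7, and the difference between the cytokines was 0.39 (95% interval -0.20 to 0.97, adjusted p = 0.399). Without IL-2 replicate 3 this difference was 0.82 and passed (adjusted p = 0.0238), so whether Cish differed rests on that array. The survival gene Bcl2 was 1.72 and 1.78 above media, with a difference of -0.06 between the cytokines (95% interval -0.60 to 0.48, adjusted p = 0.897). Socs2 differed by 0.81 with an interval from -0.00 to 1.61, and Socs1, Pim1 and Pim2 by 0.42, 0.38 and -0.51, none of which passed. Socs2 (0.82, adjusted p = 0.0336) and Pim2 (-0.64, adjusted p = 0.0086) passed when the 3 arrays of the lower scale were left out, and Socs1, Pim1 and Bcl2 again did not. The interval of Socs2 includes differences of the size seen in Nfil3, and that of Bcl2, for the probe set used, does not.

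**Figure D4:**
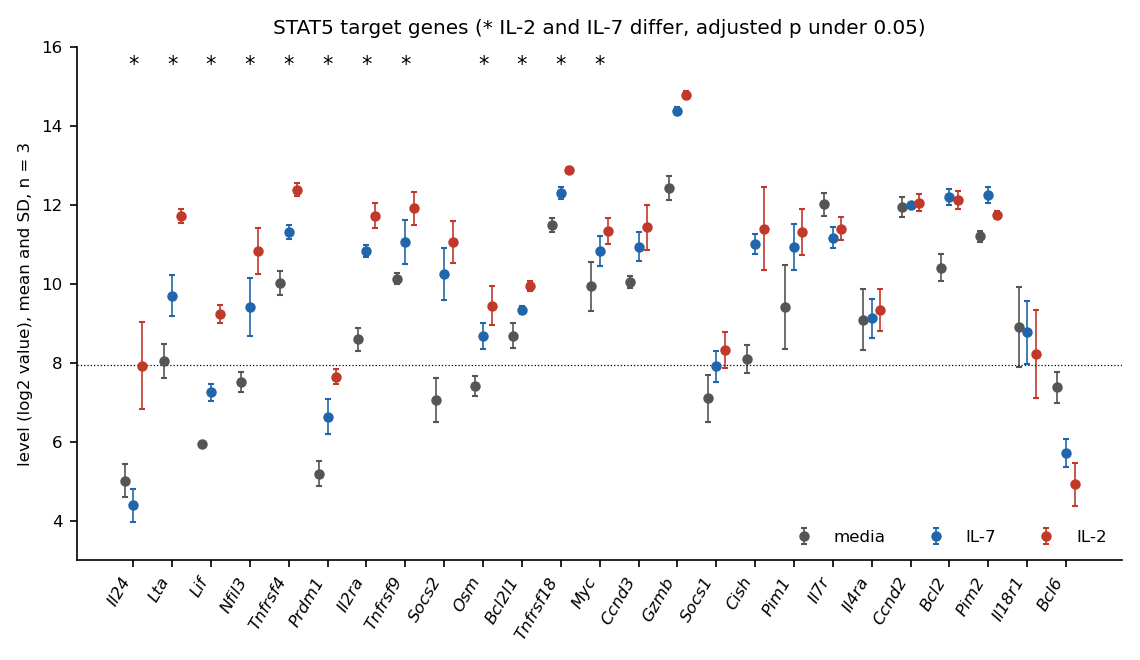
Mean log2 array signal of 25 STAT5 targets in media, IL-7 and IL-2, with error bars for the SD of 3 replicates; asterisks mark the 12 genes that passed the limma test between IL-2 and IL-7, and the dotted line is the background level of 7.94. Cish and Bcl2 lie above media with either cytokine and carry no asterisk, and the SD of Cish with IL-2 is wide, whereas Lta, Lif and Nfil3 are higher with IL-2.

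The start regions of these genes were searched for the STAT motif TTCNNNGAA, which reads the same on both strands, in the 300 bases from 250 before to 50 after each gene's start (RefSeq, mouse build GRCm38.p6). Of the 159 genes named by rule, 129 had such a window. The windows of the 3 named genes with at least 2 matches are shown because they include Cish, which was above media with both cytokines, and Lta, the STAT5 target higher with IL-2 with the smallest adjusted p of the list. Capitals mark the motif and the sequences run 5' to 3' along the gene's strand. The window of Cish is chr9:107296409-107296708 on the + strand, that of Lta chr17:35205302-35205601 on the - strand, and that of Aldoc chr11:78323948-78324247 on the + strand.
Cish: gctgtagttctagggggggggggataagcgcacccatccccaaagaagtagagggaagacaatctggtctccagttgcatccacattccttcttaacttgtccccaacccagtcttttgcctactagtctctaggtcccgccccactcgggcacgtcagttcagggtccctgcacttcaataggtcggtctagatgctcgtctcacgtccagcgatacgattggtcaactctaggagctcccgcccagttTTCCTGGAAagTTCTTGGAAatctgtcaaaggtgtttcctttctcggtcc
Lta: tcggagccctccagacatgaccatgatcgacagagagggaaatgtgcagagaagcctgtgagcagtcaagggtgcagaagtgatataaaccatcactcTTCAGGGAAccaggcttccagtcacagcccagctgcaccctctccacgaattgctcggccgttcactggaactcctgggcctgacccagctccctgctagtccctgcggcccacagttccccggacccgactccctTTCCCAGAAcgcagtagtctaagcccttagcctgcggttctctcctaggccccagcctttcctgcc
Aldoc: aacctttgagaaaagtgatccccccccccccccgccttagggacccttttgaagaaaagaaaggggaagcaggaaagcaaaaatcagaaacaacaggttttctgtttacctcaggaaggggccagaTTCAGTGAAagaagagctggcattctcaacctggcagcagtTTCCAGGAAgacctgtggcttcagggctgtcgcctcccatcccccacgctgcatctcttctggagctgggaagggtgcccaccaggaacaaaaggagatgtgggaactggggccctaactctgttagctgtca
The matches in Cish were TTCCTGGAA and TTCTTGGAA, adjacent to the annotated start. Those in Lta were TTCAGGGAA and TTCCCAGAA, 152 and 16 bases before the start, and those in Aldoc, a glycolytic aldolase that was lower with IL-2 by 0.76 (adjusted p = 0.0173), were TTCAGTGAA and TTCCAGGAA, 124 and 83 bases before it. Aldoc did not pass without IL-2 replicates 1 or 3 or IL-7 replicates 1 or 2 (adjusted p from 0.0566 to 0.0998). The motif was found in 8.30% of all 32851 windows and in 9.55% of all 27025 genes with a window. It was present in 9.17% of the genes higher with IL-2 that had a window, in 9.34% of those lower and in 8.48% of those that did not pass. The E-box CACGTG, the motif of MYC and related factors, which is also a palindrome, was present in 15%, 10.5% and 9.94% of these groups, and in 8.09% of all genes with a window (7.15% of all windows). A match is a description of the sequence and not evidence that a factor binds there.

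IL-2 left more RNA of secreted cytokines and of several members of the TNF and TNF receptor families, but members of the same families moved in the opposite direction. Of 17 cytokine genes measured, 10 were higher with IL-2 and none was lower, although only 4 of the 17 had a mean above background; without the 3 arrays of the lower scale the count was 8, and without IL-2 replicate 1, IL-7 replicate 1 or IL-7 replicate 3 it was 6. Relative to media 10 were higher with IL-2 and 3 with IL-7. Il4 was among the genes higher with IL-2 than with IL-7, at low signal, at 1.38 (adjusted p = 0.0151). Il4 did not pass without IL-7 replicate 3 (adjusted p = 0.0914). Of 13 TNF ligands, Lta and its neighbour Tnf were higher (Tnf 0.76, adjusted p = 0.000561), whereas Ltb, which encodes the membrane partner of lymphotoxin alpha, was lower by 0.58 (adjusted p = 0.00716) and Tnfsf13b, the B cell factor BAFF, by 0.63 (adjusted p = 0.0423). Ltb did not pass without IL-7 replicate 3 (adjusted p = 0.0506), and Tnfsf13b without IL-2 replicates 1 or 2 or IL-7 replicates 1, 2 or 3 (adjusted p from 0.103 to 0.212). Both means of Tnfsf13b, 5.20 with IL-2 and 5.84 with IL-7, were under background. Lta, Tnf and Ltb are neighbours on mouse chromosome 17, with 1157 bases between Lta and Tnf and 3061 between Tnf and Ltb, and 2 of the 3 were thus higher and the other lower.

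Among the 22 TNF receptors measured, 5 were higher and 2 lower with IL-2, with 3 higher without IL-2 replicate 2 or IL-7 replicate 3. The costimulatory receptor Tnfrsf4 (OX40) measured 12.32, 12.56 and 12.28 with IL-2 and 11.50, 11.31 and 11.12 with IL-7 and was higher by 1.07 (adjusted p = 0.00472). Its neighbour on chromosome 4, Tnfrsf18 (GITR), 9708 bases away, was higher by 0.59 (adjusted p = 0.00656), and Tnfrsf9 (4-1BB) by 0.84 (adjusted p = 0.0106). In the opposite direction, Cd27, a costimulatory receptor of naive and memory cells, measured 9.38, 8.86 and 8.96 with IL-2 and 10.76, 10.78 and 10.62 with IL-7. The highest IL-2 array was more than 1 log2 unit below the lowest IL-7 array, and the difference was -1.65 (SE 0.20, adjusted p = 0.000191). The death receptor gene Fas was lower by 0.75 (adjusted p = 0.0131). Of 14 CD28 family and other costimulatory genes, Icos was higher (0.57, adjusted p = 0.017) and 5 were lower, including Slamf6 (by 2.02), Cd5 (by 0.82) and Crtam (by 0.65), with 3 lower without IL-2 replicate 2. Tnfrsf9 did not pass without IL-2 replicate 2 or IL-7 replicate 3 (adjusted p from 0.0635 to 0.0687), Fas without IL-2 replicates 1 or 2 or IL-7 replicates 1 or 2 (adjusted p from 0.0577 to 0.0806), Icos without IL-2 replicates 2 or 3 or IL-7 replicates 2 or 3 (adjusted p from 0.0502 to 0.0877), and Crtam without IL-2 replicates 1 or 2 or IL-7 replicate 2 (adjusted p from 0.0544 to 0.0599). Icos also did not pass without the 3 arrays of the lower scale (0.39, adjusted p = 0.0858).

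Genes that supply amino acids and build ribosomes formed the groups with the highest share of genes higher with IL-2. Of 21 genes of amino acid synthesis and other targets of ATF4, the transcription factor of the amino acid response, 18 were higher and none lower, with a median difference of 0.92 (15 of the 21 had a mean above background). The count was 19 without the 3 arrays of the lower scale. Relative to media 18 were higher with IL-2, and 12 higher and 2 lower with IL-7. Asns, the asparagine synthetase, measured 11.13, 11.34 and 10.92 with IL-2 and 9.90, 8.91 and 8.56 with IL-7, a difference of 2.004 (SE 0.30, adjusted p = 0.000713) with at least 1 log2 unit between the groups. Cth, which makes cysteine from cystathionine, was higher by 2.34 (adjusted p = 0.000671), Pycr1, an enzyme of proline synthesis, by 1.53 (adjusted p = 0.0102), and Chac1, a glutathione-degrading enzyme, by 1.38 (adjusted p = 0.00442). Pycr1 did not pass without IL-2 replicate 2 or IL-7 replicate 3 (adjusted p from 0.0585 to 0.0698). The means of Pycr1 (7.93 with IL-2 and 6.40 with IL-7) and Chac1 (7.42 and 6.04) were under background. Of 13 amino acid transporters, 6 were higher and none lower. Slc7a5, the light chain of the large neutral amino acid transporter LAT1, measured 11.99, 11.83 and 11.34 with IL-2 and 10.71, 10.09 and 10.08 with IL-7 and did not overlap between the groups (difference 1.42, SE 0.21, adjusted p = 0.000626). Its partner chain Slc3a2 (CD98) was higher by 1.03 (adjusted p = 0.000259) and the arginine and lysine carrier Slc7a3 by 1.84 (adjusted p = 0.000112). The IL-7 means of Cth (5.90) and Slc7a3 (6.36) were under background, so the sizes of their differences are approximate.

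The enzymes that charge tRNAs with amino acids followed the same direction. Of 18 cytosolic synthetases, all above background, 13 were higher with IL-2 and none lower (median 0.67), with Cars at 1.13 (adjusted p = 0.00104), Tars at 1.02 (adjusted p = 0.000209) and Nars at 0.99 (adjusted p = 0.00104). Relative to media 16 of the 18 were higher with IL-2 and 8 with IL-7. Of 25 ribosome biogenesis factors, also all above background, 19 were higher and none lower (median 0.61), and 11, 11 and 10 were higher without IL-2 replicate 1, IL-2 replicate 2 and IL-7 replicate 3, with Nolc1, a nucleolar phosphoprotein, at 0.80 (adjusted p = 0.00148) and Wdr75, a factor of ribosomal RNA transcription and processing, at 0.84 (adjusted p = 0.0112). Relative to media 24 of the 25 were higher with IL-2, and 14 with IL-7. Of 22 genes of protein folding in the endoplasmic reticulum 8 were higher, led by the transcription factor Xbp1 at 0.80 (adjusted p = 0.000268), with none lower; without the 3 arrays of the lower scale 6 were higher and 1 lower. With 1 array left out, 3 to 5 of these folding genes were higher, the lowest count being reached without IL-2 replicate 1, IL-2 replicate 3, IL-7 replicate 1 or IL-7 replicate 2. Wdr75 did not pass without IL-2 replicate 2 or IL-7 replicate 3 (adjusted p from 0.0518 to 0.0777). Of 18 genes of the PI3K and mTOR pathway, which links nutrients and cytokine signals to translation, 2 were higher and 3 lower, with 1 higher without IL-2 replicate 2. Pik3ip1, a membrane inhibitor of PI3K, was lower by 1.49 (adjusted p = 0.000412), and Pik3cg, the catalytic p110 gamma subunit, was higher by 0.84 (adjusted p = 0.000727).

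**Figure D5:**
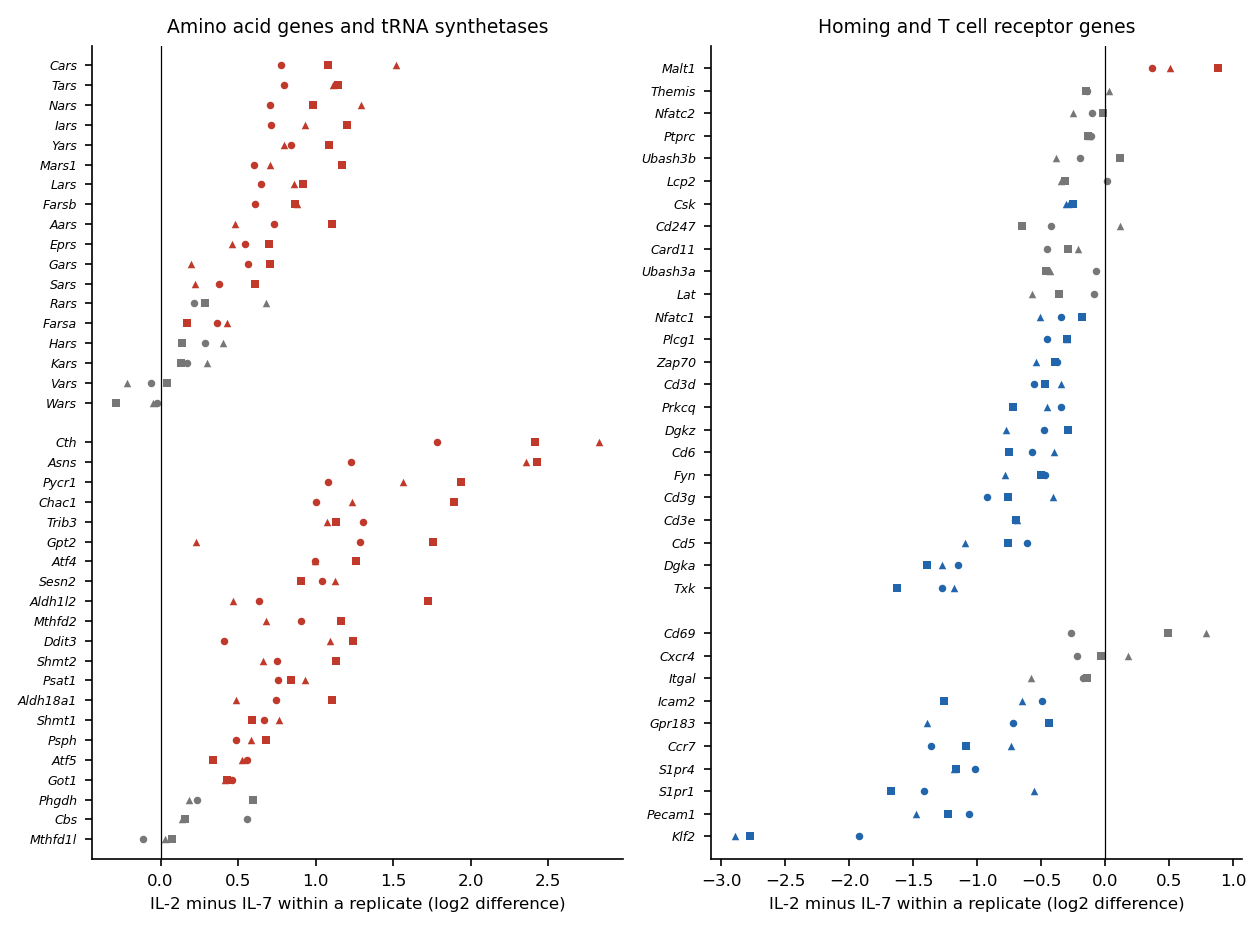
Log2 difference between the IL-2 and the IL-7 array of the same replicate number (circles, squares and triangles for replicates 1, 2 and 3; horizontal axis) for amino acid and tRNA synthetase genes (left) and for 10 of the 11 homing genes and the T cell receptor genes (right). Asns is above 0 in all 3 pairs on the left, at 1.23, 2.43 and 2.36, and Klf2 is below 0 in all 3 pairs on the right, at -1.92, -2.77 and -2.89.

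Transcription factors of effector cells were in part higher with IL-2, while those of naive and memory cells were in part lower. Of 16 effector factors, 5 were higher, among them Batf3, Nfil3, Prdm1 and Rbpj, the DNA-binding partner of Notch (0.96, adjusted p = 6.46e-05), as well as Irf4, and 1 was lower (Ikzf3, or Aiolos). Irf4 and Ikzf3 were named after their values were seen. Tbx21 (T-bet), the principal factor of type 1 effector cells, measured 9.84, 9.75 and 9.16 with IL-2 and 9.77, 10.21 and 9.68 with IL-7, with overlapping groups, and did not pass (difference -0.30, 95% interval -0.63 to 0.02, adjusted p = 0.233). Of 17 naive and memory factors, none was higher and 8 were lower, and 10 were lower without the 3 arrays of the lower scale and 5 without IL-7 replicate 3. Relative to media 14 of the 17 were lower with IL-2 and 9 with IL-7. Bach2, a repressor that restrains effector differentiation, measured 9.05, 8.63 and 9.52 with IL-2 and 10.40, 10.61 and 10.86 with IL-7 and was lower by 1.56 (SE 0.22, adjusted p = 0.000566), with no overlap. Klf3 was lower by 1.48 (adjusted p = 0.00585) and Lef1, a partner of beta-catenin in naive and memory cells, by 0.88 (adjusted p = 0.00363). The other Klf3 probe sets, all under background, differed by -0.69 to 0.34, and none passed. Eomes (0.14) and Foxo1 (-0.24) did not pass, although Foxo1 did without the 3 arrays of the lower scale (-0.37, adjusted p = 0.0294). Another Foxo1 probe set, also above background (mean 9.38), differed by -0.55 and passed in a limma fit over all named probe sets (adjusted p = 0.0405).

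Of 23 quiescence genes and targets of FOXO, the transcription factors that AKT keeps out of the nucleus, 11 were lower and 1 higher with IL-2 (Klf7, named after its values were seen). The higher count was 2 without the 3 arrays of the lower scale, IL-2 replicate 3 or IL-7 replicate 3, and 0 without IL-2 replicate 2 or IL-7 replicate 2. Besides Klf2 and Slfn1 they included Slfn2, another Schlafen gene of T cell quiescence, by 1.49 (adjusted p = 0.000561), and Cdkn1b, the CDK inhibitor p27, by 0.76 (adjusted p = 0.000681). In the MYC and MXD network, Myc was higher by 0.51 (adjusted p = 0.015), whereas 4 of 11 genes were lower, including Mxd4 and Mxd3 (by 0.77, adjusted p = 0.0161), and 2 were lower without IL-2 replicate 2 or IL-7 replicate 3. Myc did not pass without IL-2 replicate 3 or IL-7 replicates 2 or 3 (adjusted p from 0.051 to 0.0648), and Mxd3 without IL-2 replicate 3 or IL-7 replicate 3 (adjusted p from 0.0799 to 0.106). In the cell cycle lists 4.17% of DNA replication genes, 16.7% of mitosis genes and 16.7% of G1 genes passed, against 11.1% of all genes. Of 24 DNA replication genes 1 was higher (Orc1, by 0.92, named after its values were seen), and of 24 mitosis genes 4 were lower, by at most 0.55 (Ccnb2, mitotic cyclin B2). The CDK inhibitors moved apart, with Cdkn1a higher and Cdkn1b lower with IL-2, and 1 further of the 18 G1 genes passed (E2f2, lower by 0.83); without the 3 arrays of the lower scale 3 G1 genes were higher and 3 lower, and 3 were higher without IL-2 replicate 3. Orc1 did not pass without IL-2 replicates 1, 2 or 3 or IL-7 replicates 1, 2 or 3 (adjusted p from 0.0555 to 0.155).

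Most genes of lymph node homing and egress were lower with IL-2. Of 11 measured, 8 were lower and none higher, with a median difference of -1.06, and relative to media 9 were lower with IL-2 and 6 with IL-7. The count was 4 without IL-7 replicate 2, and 5 without IL-2 replicate 2, IL-7 replicate 1 or IL-7 replicate 3. Ccr7, the chemokine receptor for entry into lymph nodes, measured 9.82, 10.71 and 10.62 with IL-2 and 11.18, 11.80 and 11.36 with IL-7. The highest IL-2 array was below the lowest IL-7 array, and the difference was -1.06 (SE 0.12, adjusted p = 0.000124). The sphingosine receptors S1pr1, through which T cells leave lymph nodes, and S1pr4 were lower by 1.21 (adjusted p = 0.0411) and 1.12 (adjusted p = 0.000495), and the adhesion molecule Pecam1 by 1.26 (adjusted p = 0.00146). Both means of Pecam1, 5.92 with IL-2 and 7.18 with IL-7, were under background. S1pr1 did not pass without IL-2 replicates 1 or 2 or IL-7 replicates 1, 2 or 3 (adjusted p from 0.0925 to 0.182).

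Of the chemokine receptors and integrins 21.4% and 30.8% passed, against 11.1% of all genes. Among those that passed more were lower than higher with IL-2. Of 14 chemokine receptors, Cxcr3 and Cxcr6, which guide effector cells into inflamed tissue, were lower by 1.49 (adjusted p = 0.00105) and 1.81 (adjusted p = 0.00192), and Ccr4, a receptor of skin-homing and type 2 cells, was higher by 1.11 (adjusted p = 0.0024). Only 2 of the 14 had a mean above background. Both means of Ccr4, 6.86 with IL-2 and 5.75 with IL-7, were under it. Of 13 integrin genes, 4 were lower and none higher; Itga4, the alpha 4 chain of VLA-4, was lower by 1.65 (adjusted p = 0.000135) and its partner Itgb7 by 0.92 (adjusted p = 0.000362). Without the 3 arrays of the lower scale 1 integrin gene was higher and 3 lower. Itgae (CD103) was at -4.17 relative to media with IL-2 and at -3.19 with IL-7, and the difference between the cytokines did not pass (-0.98, 95% interval -2.11 to 0.15, adjusted p = 0.262). Of 11 chemokines, Xcl1 and Ccl5 (RANTES) were lower, the latter by 1.02 (adjusted p = 0.033). Ccl5 did not pass without IL-2 replicates 1 or 2 or IL-7 replicates 1, 2 or 3 (adjusted p from 0.075 to 0.156).

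Components of T cell receptor signalling were lower with IL-2 to a moderate degree. Of 24 genes, 14 were lower and 1 higher (Malt1, a subunit of the complex that links the receptor to NF-kB, named after its values were seen), with a median difference of -0.35. Without IL-2 replicate 2 the count lower was 9 and without IL-7 replicate 3 it was 8, and in both cases none was higher. Relative to media 20 of the 24 were lower with IL-2 and 9 with IL-7. Dgka, a diacylglycerol kinase that limits receptor signals, measured 10.60, 10.76 and 10.76 with IL-2 and 11.74, 12.14 and 12.03 with IL-7 and was lower by 1.27 (SE 0.15, adjusted p = 0.00017), with no overlap of the arrays. The kinase gene Txk was lower by 1.36 (adjusted p = 0.000374), the receptor chain gene Cd3e by 0.70 (adjusted p = 0.00324) and Cd5 by 0.82 (adjusted p = 0.00143), so the group held both transducers and inhibitors. Of the 9 CD8 T cell markers 5 were lower as well, but 5 of the 9 also belong to the list of T cell receptor genes, among them 3 of those that were lower (Cd3d, Cd3e and Cd3g). The part of the share of T cells in this result was not tested. Inhibitory receptors were lower in 4 of 12 cases, with Cd96 at -1.58 (adjusted p = 7.62e-05), Cd160 at -1.15 (adjusted p = 0.000206) and Btla at -0.75 (adjusted p = 0.00422), and none was higher. Of 10 killer lectin-like receptors 2 were lower, the larger being Klrd1 (CD94) at -1.73 (adjusted p = 0.00134).

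In the BCL2 family, which decides between survival and mitochondrial death, 3 of 16 genes were higher and 2 lower, with 1 higher without IL-2 replicate 2 or any 1 of the IL-7 arrays. The fall of Bcl2l11 exceeded all others of the family. The anti-apoptotic Bcl2l1 (BCL-XL) was higher with IL-2 by 0.60 (adjusted p = 0.0336), as was Bcl2l2 (BCL-W) by 0.46 (adjusted p = 0.00473), while Mcl1, also anti-apoptotic, was lower by 0.44 (adjusted p = 0.00902). Bcl2l1 did not pass without IL-2 replicates 1 or 2 or IL-7 replicates 1, 2 or 3 (adjusted p from 0.073 to 0.157), and Mcl1 without IL-2 replicate 2 or IL-7 replicate 3 (adjusted p from 0.0526 to 0.0584). Bcl2 itself measured 12.08, 12.38 and 11.93 with IL-2 and 12.02, 12.42 and 12.14 with IL-7, against 10.13, 10.31 and 10.79 in media, and thus rose with both cytokines to overlapping levels on the probe set used. The other Bcl2 probe sets differed by -0.22 to -1.08 between the cytokines, and none passed in a limma fit over all named probe sets (adjusted p from 0.067 to 0.64).

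Interferon-inducible genes were lower with IL-2 in part. Of 27 measured, 8 were lower and 1 was higher (Isg20, an exonuclease gene named after its values were seen), although the gene for interferon gamma itself was higher with IL-2. The count lower was 5 without IL-2 replicate 1 or IL-7 replicate 2 and 4 without IL-2 replicate 2 or IL-7 replicate 3, and Isg20 did not pass without IL-2 replicate 2. Ifi27l2a, an interferon-inducible gene, measured 9.32, 10.08 and 10.39 with IL-2 and 10.94, 11.57 and 11.56 with IL-7 and was lower by 1.43 (SE 0.18, adjusted p = 0.000273). Rtp4 was lower by 1.66 (adjusted p = 0.0218) and Xaf1 by 1.21 (adjusted p = 0.0113). Both means of Rtp4, 5.18 with IL-2 and 6.84 with IL-7, were under background. Rtp4 did not pass without IL-2 replicate 2 or IL-7 replicates 2 or 3 (adjusted p from 0.058 to 0.132), and Xaf1 without IL-2 replicates 1 or 2 or IL-7 replicate 3 (adjusted p from 0.0544 to 0.0743). Relative to media 14 of the 27 were lower with IL-2 and 4 with IL-7.

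In the list of 19 cytotoxic effector genes 15.8% passed between the cytokines, against 11.1% of all genes. The genes that passed were split into 1 rise and 2 falls, and only 11 of the 19 had a mean above background. The list is short, so this split is a description. The gene that was higher was Prf1, which encodes the pore-forming protein perforin. It measured 9.54, 9.08 and 9.68 with IL-2 and 8.31, 7.75 and 8.15 with IL-7, so that the groups did not overlap, and the difference was 1.37 (SE 0.14, adjusted p = 6.46e-05). Its other probe set, with a mean under background (5.86), differed by -0.005 and did not pass in a limma fit over all named probe sets. Relative to media Prf1 was at 1.46 with IL-2 (adjusted p = 2.82e-06) and 0.10 with IL-7 (adjusted p = 0.672). Gzmb, which encodes granzyme B, was above media by 2.36 with IL-2 and 1.94 with IL-7, and the difference of 0.42 between the cytokines did not pass (95% interval 0.03 to 0.82, adjusted p = 0.168). Gzma likewise did not pass (0.56, 95% interval 0.05 to 1.07, adjusted p = 0.158), but did without IL-2 replicate 2 (0.92, adjusted p = 0.0127). The genes that were lower were Ctsw, a cathepsin of cytotoxic granules, by 1.27 (adjusted p = 3.70e-05) and Nkg7, a granule membrane protein, by 0.49 (adjusted p = 0.00182).

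In the lists of central metabolism 4% to 13.6% of the genes passed between the cytokines, against 11.1% of all genes. The lists are short, and these counts are a description. Many genes of glycolysis, cholesterol synthesis and hypoxia passed against media, where 30.6% of all genes passed with IL-2 and 16.4% with IL-7. Of 18 glycolytic genes, 16 were higher than media with IL-2 and 15 with IL-7, but only Aldoc passed between IL-2 and IL-7. Of 21 cholesterol synthesis genes, 18 were higher than media with either cytokine and 1 was lower with IL-2 than with IL-7 (Ebp, a sterol isomerase, by 0.29, adjusted p = 0.0203). Of 22 hypoxia targets, 17 were higher than media with IL-2 and 19 with IL-7, while 1 was higher (Egln3, by 0.86, adjusted p = 0.031) and 2 were lower with IL-2 than with IL-7. Respiration genes, at 1 of 25 higher (Idh3a), and fatty acid synthesis genes, at 1 of 14 lower (Elovl5), gave similar counts, both genes being named after their values were seen. Without the 3 arrays of the lower scale, the counts higher and lower were 2 and 0 for glycolysis, 3 and 1 for cholesterol synthesis, 4 and 1 for hypoxia targets, 2 and 0 for respiration and 2 and 1 for fatty acid synthesis. Aldoc did not pass without IL-2 replicates 1 or 3 or IL-7 replicates 1 or 2 (adjusted p from 0.0566 to 0.0998), Ebp without IL-2 replicates 2 or 3 or IL-7 replicates 1, 2 or 3 (adjusted p from 0.0546 to 0.086), Egln3 without IL-2 replicates 1, 2 or 3 or IL-7 replicates 1 or 3 (adjusted p from 0.0551 to 0.175), Idh3a without IL-2 replicates 1, 2 or 3 or IL-7 replicates 1, 2 or 3 (adjusted p from 0.068 to 0.149), and Elovl5 without IL-2 replicates 2 or 3 or IL-7 replicates 1, 2 or 3 (adjusted p from 0.0634 to 0.0843).

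Catabolic genes were lower in part. Of 22 autophagy and lysosome genes, 7 were lower with IL-2 and none higher (8 and 1 without the 3 arrays of the lower scale, and 2 or 3 lower without any 1 of IL-2 replicates 1 and 2 and IL-7 replicates 1, 2 and 3), including the cathepsins Ctss by 0.63 (adjusted p = 0.022) and Ctsd by 0.48 (adjusted p = 0.0127) and the autophagosome marker Map1lc3b (LC3B) by 0.53 (adjusted p = 0.0275). Of the 8 GIMAP GTPases, which maintain lymphocyte survival, 5 were lower, with Gimap6 at -0.65 (adjusted p = 0.00271), and only 1 was lower without IL-2 replicate 2, 2 without IL-7 replicate 3, and 3 without IL-2 replicate 3 or IL-7 replicate 1. Ctss did not pass without IL-2 replicates 1 or 2 or IL-7 replicates 1, 2 or 3 (adjusted p from 0.0583 to 0.125), Ctsd without IL-2 replicate 2 or IL-7 replicate 1 (adjusted p from 0.053 to 0.0741), and Map1lc3b without IL-2 replicates 1 or 2 or IL-7 replicates 1, 2 or 3 (adjusted p from 0.0614 to 0.136). Relative to media all 8 were lower with IL-2 and 5 with IL-7. Inhibitors of ERK signalling were divided, with 3 of 14 higher, among them Dusp4, a nuclear phosphatase, at 1.45 (adjusted p = 0.00198) and Spred2 at 0.77 (adjusted p = 0.000528), and Dusp10 lower by 0.61 (adjusted p = 0.00718). Dusp10 did not pass without IL-2 replicate 2 (adjusted p = 0.0507). Of 13 cytokine feedback inhibitors, which are described in part among the STAT5 targets, 1 was higher (the phosphatase gene Ptpn2, by 0.34, adjusted p = 0.0191) and 1 was lower (Pias1, by 0.34, adjusted p = 0.00798), and without the 3 arrays of the lower scale 4 were higher and 1 lower, and 2 were higher without IL-2 replicate 3. Ptpn2 did not pass without IL-2 replicate 2 or IL-7 replicate 3 (adjusted p from 0.107 to 0.111).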

How the data were processed

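RNA from 18 cultures (6 groups of 3 biological replicates) was hybridized to Mouse 430 2.0 GeneChips, and the deposited values are log2 signals of probe sets, computed by the authors with GeneChip Command Console 3.1.1 and Expression Console 1.1 by RMA. In the deposited values 3 columns (replicate 3 of media, IL-2 and IL-15) lie on a lower scale, and all 18 were therefore quantile normalized together. RMA and quantile normalization force the arrays to 1 distribution, so a shift shared by most genes cannot be seen. Precision is limited by having 3 arrays in each group. The p-values rest on the residual spread over all 18 arrays after group and replicate number are fitted, moderated by eBayes. They are therefore not a measure of the spread between the IL-2 and IL-7 arrays alone. Of all genes 2027 passed in this fit, against 259 without the replicate term and 914 with the 6 arrays of this comparison fitted alone. The columns held no array from outside the series (0 columns).

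Each gene was represented by the probe set with the highest mean over 18 arrays. Of 136 other probe sets of the named genes that passed, 121 had the same sign and 73 also passed in that direction. Probe sets were named from the platform annotation, and 17 further ones from the study's gene tables. A linear model with group and replicate number was fitted to all 18 arrays (limma 3.58.1 in R 4.3.3, 10 residual degrees of freedom, 14.3 in total with eBayes), and p-values were adjusted over 18211 genes (Benjamini-Hochberg, two-sided, threshold 0.05). Replicate 3 of every group also differs in its RNA kit. Replicates were paired by number because samples with the same number deviated together from their group means (lowest correlation 0.442 over 45 pairs of arrays, against at most 0.384 over 90 pairs with different numbers). No 2 arrays held the same values, and the lowest correlation between the 6 arrays of this comparison was 0.969. The test was also run on simulated data, drawn with independent normal noise from a model with the same replicate term. Such data cannot show whether that model holds for these arrays, and they do not check the normalization.

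Genes named in the text were the 15 largest rises and 15 largest falls that passed, did not overlap and reached the background level in the higher group; in each list up to 4 members with the largest difference that passed; and a set of receptor, STAT5 target and effector genes. Exceptions to a list's direction were named after their values were seen. The members and lists were chosen with earlier results of these data known. Tcf7 and other genes whose probe sets had no name in the tables used were not analysed here, and the values of some other genes are not reported here. Promoter windows were searched with Python 3.11.15 (pandas 2.3.3), and figures drawn with matplotlib 3.10.9.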

Additional observations from a re-analysis of the deposited data

How the results depend on the processing

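The number of genes that passed depended on the processing. No gene that passed was called in the opposite direction under any alternative. The main counts were 949 higher and 1078 lower over all genes, and 107 and 106 in the lists. Without the replicate block they were 96, 163, 23 and 26, and 57 of 139 named genes that had passed still did. With the values as deposited they were 14, 157, 7 and 29, with the median of all genes at -0.41, so the split of directions depends on bringing the arrays to 1 scale. With the 6 columns normalized and fitted alone they were 367, 519, 74 and 60, and with the 6 arrays fitted alone after joint normalization 377, 537, 76 and 63. Arrays were also left out, either 1 IL-2 or IL-7 array or all arrays of 1 replicate number in every group. This gave 70 to 1244 genes higher and 98 to 1414 lower, and 22 to 124 and 18 to 114 in the lists. The lowest counts came without replicate 1 of every group (70 higher and 98 lower over all genes), which leaves 2 IL-2 and 2 IL-7 arrays and a smaller fit. Centring on the median, keeping only genes above background, averaging probe sets and an intensity trend gave 789 to 1094 higher and 970 to 1283 lower. Leaving out the 3 arrays of the lower scale, chosen after the data were seen, gave 1316, 1410, 125 and 120.

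On the deposited scale 1711 of the 2027 genes that had passed kept their sign, and the median of all genes had moved from 0.02 to -0.41, so the values on that scale carry this shift. Of the named genes that had passed, Bcl2l2 (-0.026) and Ptpn2 (-0.062) turned; of those that had not, Socs1 was at -0.070, Cish -0.059, Pim1 -0.035, Il7r -0.19 and Eomes -0.35. Other turns were of genes near 0. With median centring Il2rb was at 0.00084 and Bcl2 at 0.0088, and with averaged probe sets Il15ra was at 0.024 and Stat5b at 0.069. When arrays were left out, Stat5a ranged from -0.15 to 0.072, Il2rb from -0.086 to 0.020 and Bcl2 from -0.16 to 0.086. Signals under the background level of 7.94 limit the size of a difference, as for Klf2 and Xcl1 with IL-2.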

Other observations

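The genes that separated IL-2 from IL-7 were spread differently over the other cytokine groups, given here as group means with their SD (n = 3) and without tests. Lta was highest with IL-2 (11.72 ± 0.17) and next with IL-7 (9.70 ± 0.52), and lay at 7.21 ± 0.52 with IL-4, 7.97 ± 0.40 with IL-15 and 6.26 ± 0.18 with IL-21, against 8.04 ± 0.43 in media. Bcl2l11 was at 8.47 ± 0.38 with IL-2 and between 10.64 and 11.37 in the other 5 groups. Prf1, at 9.43 ± 0.31 with IL-2 and 8.07 ± 0.29 with IL-7, was highest with IL-21 (12.07 ± 0.16), as was Ifng (10.19 ± 0.53 with IL-21, 9.97 ± 1.00 with IL-2). Klf2 was at 7.25 ± 0.27 with IL-2, 7.08 ± 0.25 with IL-4 and 7.79 ± 0.88 with IL-21, under the background level in each, and at 9.78 ± 0.63 with IL-7, 10.33 ± 0.76 with IL-15 and 10.66 ± 0.64 in media. Ccr7 was lowest with IL-4 (10.28 ± 0.26) and next with IL-2 (10.38 ± 0.49).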
